A study of Mus musculus with 4 samples.

Results

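The genes described here are 10 transcription factors of the mouse pluripotency network: Nanog, Pou5f1, Sox2, Esrrb, Tfcp2l1, Nr5a2, Nr0b1, Prdm14, Tbx3 and Zfp42. They were taken by name from the gene rows of the read-count files, which list all 10 among 23366 symbols, and all 10 were among the 13199 genes with enough reads to be tested. The tested libraries came from R1 mouse embryonic stem cells (strain 129X1 x 129S1) transfected with a short hairpin RNA against Cyrano, a long noncoding RNA known for its conserved miR-7 site. Their controls came from R1 cells transfected with a non-targeting hairpin. There were 2 knockdown and 2 control libraries of polyadenylated RNA. Cells of both groups carried the same mCherry and puromycin vector, were grown with serum, serum replacement and LIF on gelatin, and were enriched after transfection by puromycin or by sorting. The labels state neither which enrichment served which library nor the share of cells that carried the hairpin. The labels do not say how many hairpin sequences were used. The submitters call the libraries biological replicates without saying how the cultures were separated, so each p-value rests on the spread between these libraries, which may be technical.

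OCT4 (encoded by Pou5f1), SOX2 and NANOG bind together at enhancers of embryonic stem cells and activate each other's genes, and OCT4 and SOX2 often sit side by side on a composite DNA element. Around this core, ESRRB, TFCP2L1, NR5A2, TBX3 and PRDM14 keep the naive state of the preimplantation epiblast, in part downstream of LIF and WNT signals. NANOG is known to vary between cells of serum cultures, and OCT4 stays on as naive cells move to the formative epiblast. In RNA from bulk cultures, fewer cells that express a gene and less RNA per cell cannot be told apart.

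The gene counts summed to 22321102 and 20761783 reads in knockdown libraries 1 and 2 and to 16854403 and 19138196 reads in controls 1 and 2, and the 10 factors took 0.367% and 0.375% of them after knockdown and 0.412% and 0.443% in the controls. Rn45s, a locus of precursor ribosomal RNA, took 12.3% and 11.03% of the reads after knockdown and 17.5% and 15.9% in the controls. Without its reads the share of the 10 factors was 0.419% and 0.421% after knockdown and 0.499% and 0.526% in the controls. Cyrano, listed as 1700020I14Rik, had 3.99 and 3.16 CPM (the count as a share of the library size, which was scaled by the TMM method) in the knockdown libraries, against 24.8 and 15.1 CPM in the controls. Its log2 fold change (log2 FC, knockdown over control) was -2.48 ± 0.30 (SE; edgeR quasi-likelihood test, adjusted p = 0.0070), lower in both libraries labelled as knockdown. The cells carried the transcripts of embryonic stem cells. The 10 markers of that state summed to 4100.2 and 3794 CPM after knockdown and to 4214 and 4045 CPM in the controls. Pou5f1, Sox2, Nanog and Zfp42 are among these markers, so the sum is not independent of the factors described here. Of 8 feeder and fibroblast markers, Col3a1, Dcn, Lum, Postn and Fap had 0 reads in all 4 libraries, and the others had some. Thy1 had 1072 and 439 reads after knockdown and 625 and 407 in the controls. Reads of Col1a1 were 18 and 33 against 41 and 38, and those of Col1a2 were 11 and 4 against 6 and 11.

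Of the 10 factors, 9 had a log2 fold change below 0, from -0.81 for Tfcp2l1 to -0.09 for Pou5f1, and Sox2 stood alone above 0, at 0.18. The median was -0.29, beside -0.002 over all genes tested. None passed edgeR's quasi-likelihood test at an adjusted p under 0.05 over all genes, a threshold passed by 0.0833% of genes tested. At an unadjusted p under 0.05 there were 5 factors lower (Nanog, Tfcp2l1, Nr5a2, Prdm14 and Esrrb) and 0 higher, where 5.43% of all genes tested were lower at that level and 6.18% higher. The levels of the factors lay at percentiles 60.9 (Prdm14) to 99.5 (Esrrb) of all genes tested. Shares among genes of like level were not computed. In 8 factors the knockdown libraries were each below both controls, a pattern seen in 21.3% of all genes, and in Sox2 they were each above, a pattern seen in 22.3%. Nr0b1 was the factor whose groups overlapped. With library size as the only scaling, Pou5f1, Tbx3 and Zfp42 overlapped as well, which left 5 factors below, beside 17% of all genes, and Sox2 above, beside 26.6%. DESeq2 called 2 of the 10 lower, Nanog and Tfcp2l1, beside 0.648% of the genes to which it gave an adjusted p, and limma-voom called 0 of the 10, beside 0.0227% of all genes in either direction.

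**Figure D1:**
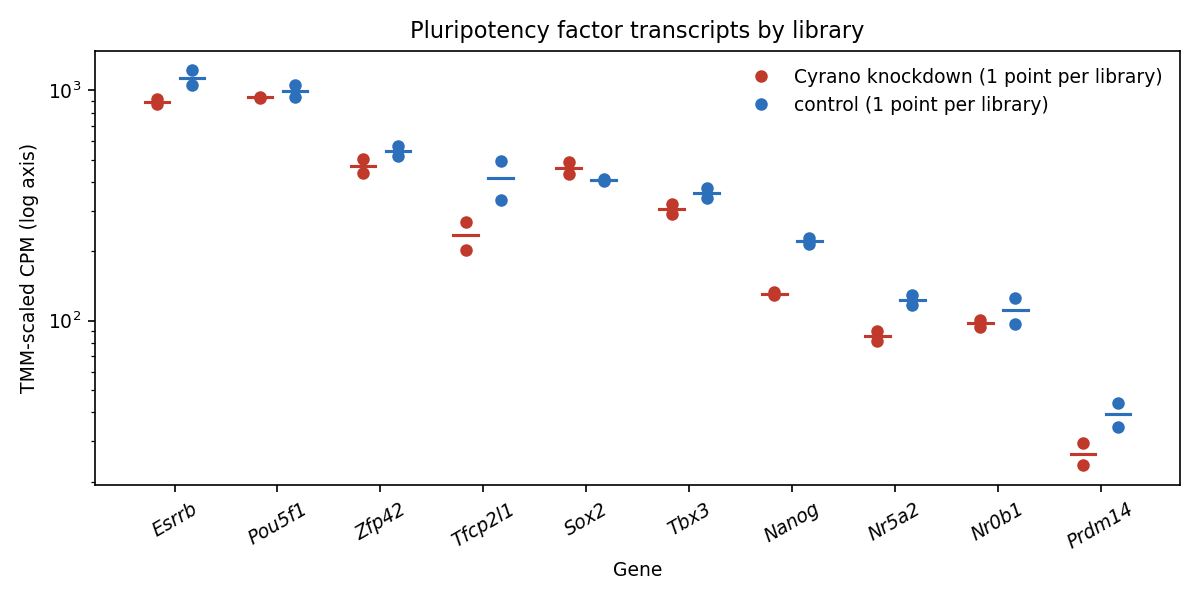
Level of each factor in every library, in TMM-scaled CPM on a log axis; points are libraries (2 Cyrano knockdown left, 2 control right), bars are group means, and genes run from the highest to the lowest control mean. Nanog at 129 and 133 CPM after knockdown lies apart from 216 and 228 CPM in the controls, while Pou5f1 nearly coincides; CPM is not scaled for transcript length, so heights of different genes are not comparable.

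Nanog, the homeodomain factor that gives naive cells their resistance to differentiation, had 129 and 133 CPM in the knockdown libraries and 216 and 228 CPM in the controls. The reads behind these levels were 2878 and 2861 after knockdown and 3548 and 4301 in the controls. The gap between the groups was far wider than that within either, since replicates differed by 0.04 (knockdown) and 0.08 (control) on the log2 scale. The log2 FC was -0.76 ± 0.14 (SE; 95% interval -1.06 to -0.46), a level 1.69-fold lower after knockdown. With an edgeR adjusted p of 0.0696 it ranked 22 by p-value among the 13199 genes and was not called. DESeq2 gave an adjusted p of 0.000715. With Rn45s and Lars2 left out of the fit, edgeR gave -0.77 (adjusted p = 0.0663). Over 14 alternatives without a replicate term its adjusted p (edgeR, DESeq2 or limma-voom) ran from 0.00040 with no filter on low counts to 0.18 without control library 2, and 5 of the 14 called it.

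Pou5f1, the POU-domain gene of OCT4, had 929.8 and 936 CPM in the knockdown libraries and 938 and 1051 CPM in the controls. The nearest libraries of the groups differed by under 2 CPM, although the groups did not overlap. Its log2 FC of -0.09 ± 0.14 had a 95% interval of -0.40 to 0.22 (edgeR adjusted p = 0.85), so a fall as large as that estimated for Nanog lies outside the interval. Sox2, the HMG-box partner of OCT4, had 487 and 436 CPM after knockdown and 402 and 413 CPM in the controls. Both knockdown libraries were higher, but the log2 FC of 0.18 ± 0.14 (95% interval -0.13 to 0.48) did not pass (edgeR adjusted p = 0.66). Sox2 lies in an intron of the noncoding gene Sox2ot, which had 31 and 29 reads after knockdown and 20 and 4 in the controls, against 10877, 9375, 6613 and 7793 for Sox2.

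**Figure D2:**
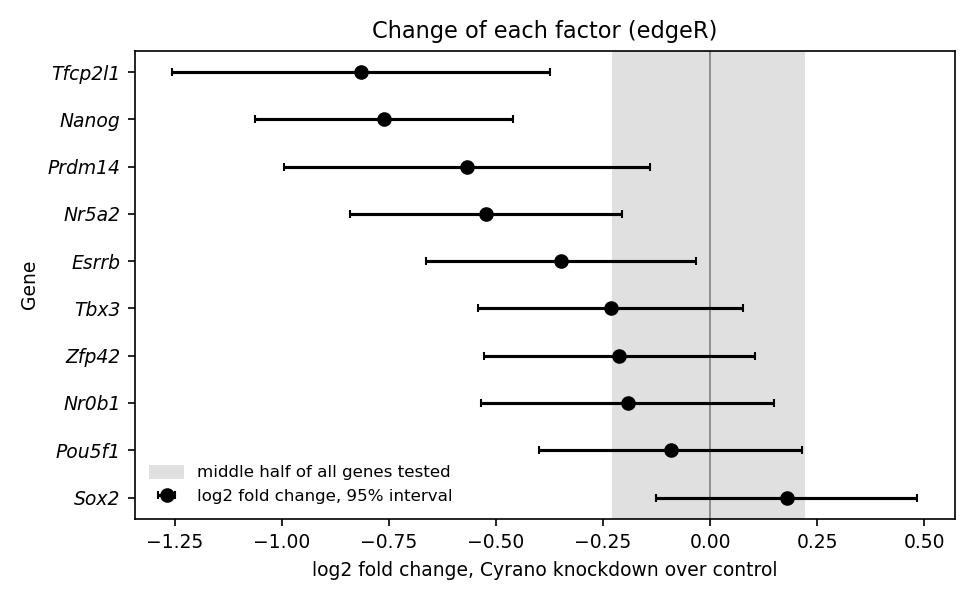
Log2 FC of each factor, Cyrano knockdown over control, from edgeR; points are estimates, bars 95% intervals, and the grey band spans the 25th to 75th percentile of all genes tested. Intervals of Tfcp2l1, Nanog, Prdm14, Nr5a2 and Esrrb lie below 0 before adjustment, and those of the other 5 factors include 0.

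Tfcp2l1, a grainyhead-family factor downstream of LIF, had the largest estimate of the 10 and the widest spread between replicates. Its levels were 269 and 203 CPM after knockdown and 495 and 334 CPM in the controls. The groups did not overlap, but the replicates differed by 0.41 (knockdown) and 0.57 (control) on the log2 scale. The log2 FC was -0.81 ± 0.20 (95% interval -1.26 to -0.37; adjusted p = 0.17 by edgeR and 0.016 by DESeq2). It was -0.50 without control library 1 and -1.07 without control library 2. Without knockdown library 1 it was -1.04, with an edgeR adjusted p of 0.0030 in a fit that takes its spread from the controls alone and that called 131 genes lower and 60 higher over all genes, against 6 and 5 with all libraries.

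The sequences of miR-7 and its matches are shown because the series' title sets Cyrano beside microRNA activity. A microRNA pairs with target messages mainly through bases 2 to 8, the seed, printed in capitals in the mature sequence (RefSeq, GRCm38.p6, chromosome 13). The longest annotated 3′ UTR of each factor was searched for GTCTTCC, the letters that pair with the whole seed, and for TCTTCCA, which pairs with the seed except its last base and has an A opposite the first base of miR-7. Among the 10 factors, Nanog had 1 match, Tfcp2l1 had 2, and the other 8 had 0. Capitals mark the match in each stretch:
miR-7a-5p: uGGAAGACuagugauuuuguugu
Nanog, base 52 of the 3′ UTR: ggttccttcctTCTTCCAaatattttcat
Tfcp2l1, base 5344: tttctctttccTCTTCCAatctctttgtc
Tfcp2l1, base 7448: acttaccatgtTCTTCCAtgctttgatgt
All 3 are TCTTCCA, and none of the 10 factors held GTCTTCC. Nanog and Tfcp2l1 were also the 2 factors with the lowest estimates. Prdm14 and Nr5a2, next in order at -0.57 and -0.52, held 0 matches. Whether the letters bear on the estimates was not tested. The share of genes with such letters depends on the length of the UTR: it was 20.6% among 2596 genes whose 3′ UTR was within 20% of the 1078 bases of Nanog, and 78.6% among 337 genes near the 7734 bases of Tfcp2l1. The 3′ UTRs of Nr5a2 and Esrrb, 2892 and 2563 bases long, held 0 matches, where 43.4% and 40.7% of genes of like length held one. These letters are a description of sequence and were not tested as sites, and the series has no readout of miR-7 binding.

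Among the nuclear receptor genes, Nr5a2 (LRH-1, which can bind the Pou5f1 promoter) had 90.2 and 81.4 CPM after knockdown and 129.9 and 117 CPM in the controls. The groups lay well apart, with a log2 FC of -0.52 ± 0.15 (95% interval -0.84 to -0.21; edgeR adjusted p = 0.19). Esrrb, an orphan receptor that NANOG activates and that can stand in for it in self-renewal, had 917 and 869 CPM against 1053 and 1219.6 CPM in the controls. Its log2 FC of -0.35 ± 0.15 had a 95% interval of -0.66 to -0.03 and an edgeR adjusted p of 0.37. Nr0b1 (DAX1), a receptor-like protein without the usual DNA-binding domain that binds OCT4 and other receptors, had 94.2 and 100.6 CPM against 97.3 and 125 CPM. These groups overlapped, and the log2 FC of -0.19 ± 0.16 rested on control library 2, without which it was -3.5e-05.

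Prdm14, a PR-domain repressor of FGF signalling and of DNA methyltransferase genes, was the least abundant factor. It had 527 and 632 reads, or 23.6 and 29.4 CPM, after knockdown and 570 and 827 reads, or 34.7 and 43.8 CPM, in the controls. The log2 FC was -0.57 ± 0.20 (95% interval -0.995 to -0.14; edgeR adjusted p = 0.29). Tbx3, a T-box factor that acts in naive cells and also in early endoderm, had 292 and 322 CPM against 342 and 378 CPM in the controls, with a log2 FC of -0.23 ± 0.14 (edgeR adjusted p = 0.56). Zfp42 (REX1), a zinc-finger gene widely used as a reporter of the naive state, had 439 and 504 CPM against 517 and 576 CPM, with a log2 FC of -0.21 ± 0.15 (edgeR adjusted p = 0.60). In all 3 genes both knockdown libraries were below both controls, by a margin smaller than the gap within either group.

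The 250 bases before the annotated starts (RefSeq, GRCm38.p6) were searched on both strands for elements of the factors themselves, because the network is known for regulating its own genes. Of the 10 factors, 8 had a promoter entry, and Prdm14 and Tbx3 were not searched. The letters were ATTTGCAT, the octamer of POU factors; TTTGCAT followed after 1 base by ACAA, a composite of an OCT4 and a SOX2 element; AAGGTCA, the half-site of ESRRB and NR5A2; and TTCCNGGAA, the STAT element through which LIF acts. The octamer and the composite can overlap in TTTGCAT. RefSeq gives Nanog, Pou5f1, Esrrb and Nr5a2 2 starts each, so the 8 genes had 12 windows, and the downstream window of Nanog is the one printed. Nanog held the composite at positions -151 to -140 (the base before the start is -1) and in its other window, which overlaps this one, while 0.0335% of all promoter windows held it. Zfp42 held the octamer at -186 to -179, as did 1.60% of windows. The half-site (4.08% of windows) and the STAT element (0.913%) were in none of the 12 windows, and the other 6 genes held 0 matches to any of these 4. Only these exact letters were searched, so variants of an element, those of the half-site included, were not counted and may be present. Searched too were ACAATGG, a SOX element, found in 1 of the 12 windows, at the downstream start of Pou5f1 (3.02% of all windows), and GGGNGGGG, the GC-rich letters of KLF and SP factors, found in 8 of the 12 windows, those of Nanog and Zfp42 included (30.8% of all windows). The composite was added to this search last, after the promoters had been seen and because the Nanog promoter is known for it, so its match is no independent find. Both promoters are printed, from 5′ to 3′ along the gene, with the composite or octamer in capitals:
Nanog, chr6:122707315-122707564, plus strand: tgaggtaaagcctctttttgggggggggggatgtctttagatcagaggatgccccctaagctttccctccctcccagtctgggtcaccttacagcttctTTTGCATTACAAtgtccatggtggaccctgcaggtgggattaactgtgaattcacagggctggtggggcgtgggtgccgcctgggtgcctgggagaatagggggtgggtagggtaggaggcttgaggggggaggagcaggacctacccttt
Zfp42, chr8:43307010-43307259, minus strand: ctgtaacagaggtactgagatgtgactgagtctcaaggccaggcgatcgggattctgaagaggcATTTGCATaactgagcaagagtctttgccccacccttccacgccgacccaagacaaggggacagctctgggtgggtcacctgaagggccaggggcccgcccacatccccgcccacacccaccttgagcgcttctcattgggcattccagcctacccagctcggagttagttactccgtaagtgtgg
Nanog, the gene with the composite, had a log2 FC of -0.76, and Zfp42, the gene with the octamer, had -0.21. Pou5f1 and Sox2, which encode known binders of the composite, stood at -0.09 and 0.18. Binding was not measured here, and a link between these elements and the RNA levels was not tested.

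Ratios between factors within a library do not depend on how libraries are scaled. Per 100 Pou5f1 reads, the knockdown libraries held 13.9 and 14.2 Nanog reads and the controls 23.01 and 21.7. The log2 ratio differed by -0.67, or 1.59-fold, and replicates lay close together. For Tfcp2l1 there were 28.9 and 21.6 reads per 100 Pou5f1 reads after knockdown and 52.8 and 31.8 in the controls. For Esrrb there were 98.7 and 92.8 against 112 and 116, more reads than Pou5f1 in the controls and fewer after knockdown. Reads are not scaled for transcript length, and per kilobase of exon Pou5f1 was above Esrrb in both groups. Prdm14 and Nr5a2 were also lower against Pou5f1, by log2 differences of -0.48 and -0.43. Sox2 went the other way, at 52.4 and 46.5 against 42.9 and 39.3 reads. In Tbx3 and Zfp42 the differences were -0.14 and -0.12, and in Nr0b1, at -0.09, the groups overlapped. Of the 9 ratios to Pou5f1, 7 were separated downward after knockdown and 1 upward, beside 12.6% lower and 30.8% higher among all other genes set against Pou5f1. The 9 ratios share their denominator. With 2 libraries against 2, a two-sided exact permutation test of 1 ratio cannot go below p = 0.333, the value of each of the 8 separated ratios (0.625 after Benjamini-Hochberg adjustment over 45 pairs).

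**Figure D3:**
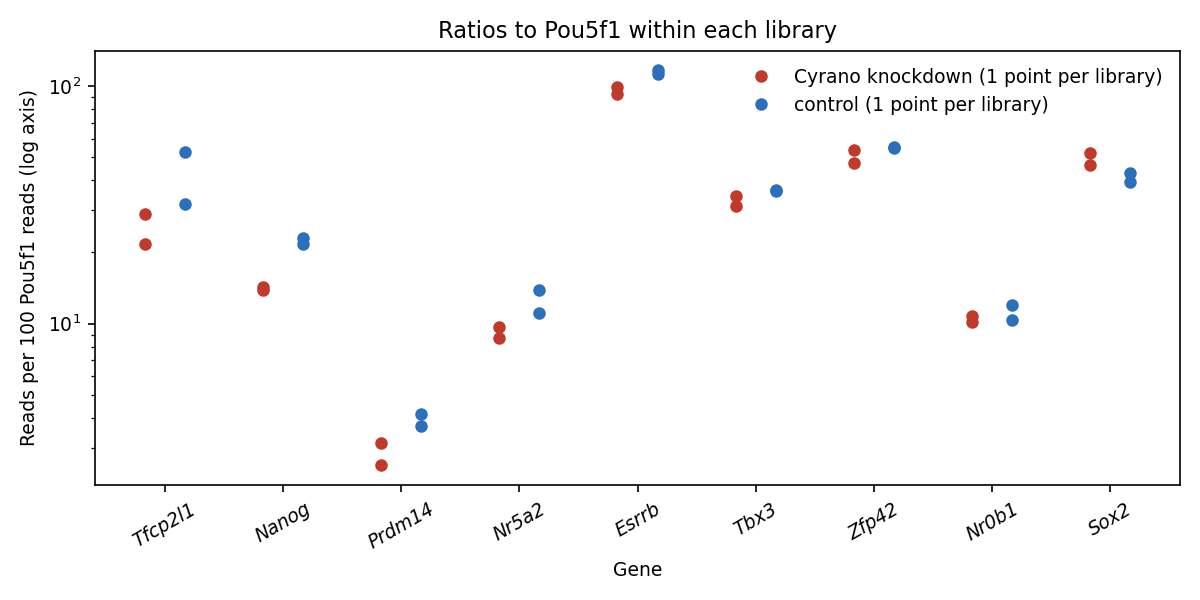
Reads of each factor per 100 Pou5f1 reads of the same library, on a log axis; points are libraries (2 Cyrano knockdown left, 2 control right), and genes run from the most negative to the most positive log2 difference. Nanog lies at 13.9 and 14.2 after knockdown against 23.01 and 21.7 in the controls, Sox2 is the factor with higher ratios after knockdown, and the groups of Nr0b1 overlap.

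Of the 45 pairs of factors, 24 had ratios that did not overlap between the groups, as did 42.3% of all pairs of tested genes. Outside the ratios to Pou5f1, the 3 largest such differences all involved Sox2. There were 1.81 and 2.15 Sox2 reads per Tfcp2l1 read in the knockdown libraries and 0.812 and 1.23 in the controls, a log2 difference of 0.98. There were 0.265 and 0.305 Nanog reads per Sox2 read after knockdown and 0.537 and 0.552 in the controls, a log2 difference of -0.94. Sox2 reads per Prdm14 read were 20.6 and 14.8 against 11.6 and 9.42, a log2 difference of 0.74. Nanog ratios were lower after knockdown against 7 of the other 9 factors, and those to Tfcp2l1 and Prdm14 overlapped. These 9 ratios share the Nanog reads, and the share among all genes set against Nanog was not computed. Of the 36 pairs without Nanog, 17 did not overlap between the groups. There were 0.480 and 0.656 Nanog reads per Tfcp2l1 read after knockdown and 0.436 and 0.682 in the controls. Each of the 24 pairs that did not overlap had an exact permutation p of 0.333, the smallest the design allows, and the p of the overlapping pairs was 0.667 or 1.

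Levels of different genes were compared per kilobase of annotated exon. On that scale Pou5f1 was highest, at 415 ± 2.07 CPM per kb after knockdown and 442 ± 35.7 in the controls (SD, n = 2 each). Zfp42 followed at 251 ± 24.4 and 290.5 ± 22.0, then Sox2 at 224 ± 17.8 and 198 ± 3.58, and Esrrb at 148 ± 5.65 and 188 ± 19.4, with the knockdown value given before the control value. Nanog stood at 58.4 ± 1.26 after knockdown and 98.9 ± 3.77 in the controls. Below it came Nr0b1 at 53.9 ± 2.47 and 61.6 ± 10.98, Tbx3 at 46.3 ± 3.22 and 54.4 ± 3.90, and Tfcp2l1 at 24.98 ± 4.96 and 43.9 ± 12.1. Nr5a2, at 14.5 ± 1.05 and 20.9 ± 1.58, and Prdm14, at 10.3 ± 1.59 and 15.3 ± 2.52, were lowest. The order was the same in both groups. In the controls Sox2 overlapped Esrrb, Nr0b1 overlapped Tbx3, and Tbx3 overlapped Tfcp2l1. In the knockdown libraries Zfp42 overlapped Sox2. Nanog lay apart from Nr0b1 in both groups, and its margin was narrower after knockdown. With the longest transcript as the length, Esrrb stood above Sox2 and Nanog above Tbx3 in the controls. After knockdown the mean of Esrrb was below that of Sox2, and the mean of Nanog below that of Tbx3. The knockdown libraries of both pairs overlapped on this scale, and these 2 orders depend on the length used.

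Across all genes, fold changes followed transcript length in these libraries, with a median log2 FC of 0.12 among the shortest of 5 equal length groups and -0.14 among the longest. Nanog, at 2211 bases, was in the second group, whose median was 0.05, so its estimate lay 0.81 below that of transcripts of its size. Prdm14 lay 0.61 below its group, Tfcp2l1, in the group of longest transcripts, 0.68 below, and Nr5a2 0.48 below. When length and GC content of the transcripts were entered as an offset, Nanog stood at -0.86 and was called (edgeR adjusted p = 0.038). Under it Tfcp2l1 stood at -0.64, Esrrb at -0.23 and Tbx3 at -0.09, nearer to 0, and Zfp42 at -0.34 and Pou5f1 at -0.15, farther from 0, none of them called.

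**Figure D4:**
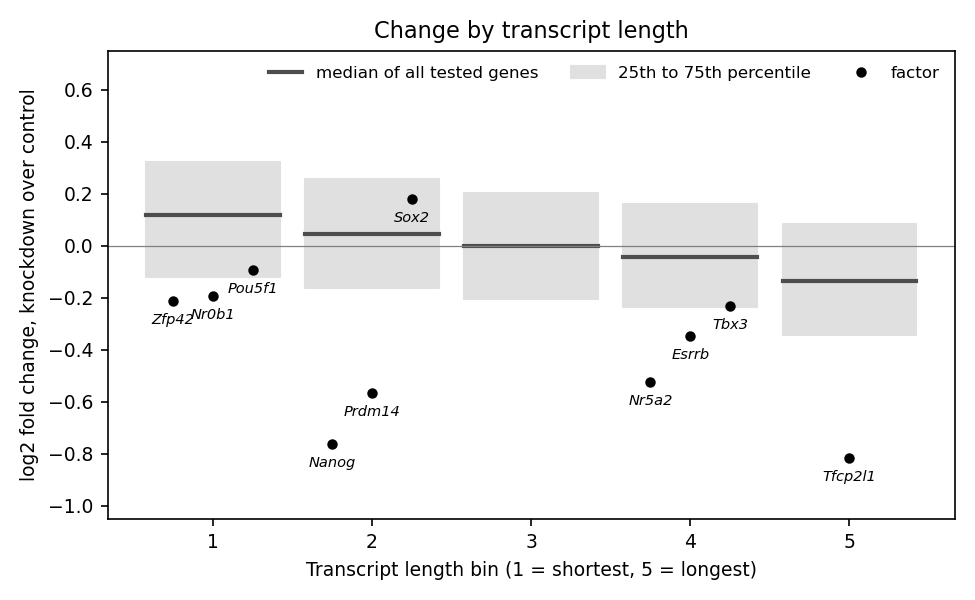
Log2 FC, Cyrano knockdown over control, against transcript length in 5 equal groups; grey boxes span the 25th to 75th percentile of all tested genes, dark bars are their medians, and points are the 10 factors. Medians run from 0.12 to -0.14 from short to long, and 7 factors lie below the box of their own group, with Pou5f1, Sox2 and Tbx3 inside theirs.

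Of 26 further pluripotency regulators, 20 lay below 0 in log2 FC, with a median of -0.14, and edgeR called 0. At an unadjusted p under 0.05 there were 4 lower and 2 higher, beside 5.43% and 6.18% of all genes. The lowest p-values belonged to Tet2, an enzyme of DNA demethylation (-0.73 ± 0.20, adjusted p = 0.20), Rcor2, a subunit of the LSD1 corepressor (-0.46 ± 0.15, 0.24), Mycn, a MYC family gene (0.47 ± 0.16, 0.27), and Dppa4, a chromatin protein gene of pluripotent cells (0.36 ± 0.16, 0.39). Of 13 classical targets of OCT4, SOX2 and NANOG, 6 were below 0 and 7 above, with a median of 0.003, and 0 were called, with 0 lower and 2 higher at an unadjusted p under 0.05. Upp1, the uridine phosphorylase gene, stood at 0.68 ± 0.22 (adjusted p = 0.27) and Dppa5a, an RNA-binding protein gene, at 0.40 ± 0.16 (0.35). Fgf4, the growth factor gene with a composite element in its enhancer, stood at -0.20 ± 0.15 (0.65), and Lefty1, a NODAL antagonist, at 0.41 ± 0.30 (0.63). DESeq2 and limma-voom called 0 of either list.

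Genes of the formative and primed epiblast, a list chosen with earlier results of these data known, lay more often above 0. Of 14 tested, 11 did so, their median log2 FC was 0.20, beside -0.002 over all genes tested, and edgeR called 0. At an unadjusted p under 0.05 they held 5 higher and 0 lower, beside 6.18% and 5.43% of all genes. Otx2, the factor that directs naive cells to the formative state, had 10.6 and 12.3 CPM after knockdown against 6.02 and 3.71 CPM in the controls (1.24 ± 0.31, edgeR adjusted p = 0.17), and DESeq2 called it higher at an adjusted p of 0.044, as it did 0.729% of the genes it adjusted. Tcf15, a bHLH gene of cells leaving the naive state, stood at 0.50 ± 0.14, the DNA methyltransferase gene Dnmt3a at 0.49 ± 0.14 and the SOX factor gene Sox4 at 0.50 ± 0.15, with edgeR adjusted p values of 0.20, 0.21 and 0.24.

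Markers of primitive endoderm, a cell type that these cultures can hold, were higher in sum in both knockdown libraries. This list too was chosen with earlier results of these data known. The 10 markers summed to 166 and 203 CPM after knockdown and to 109 and 124 CPM in the controls. Of 8 tested, 7 had a positive log2 FC. In 6 both knockdown libraries were above both controls, beside 22.3% of all genes, and in 1 both were below, beside 21.3%. At an unadjusted p under 0.05 there were 5 higher and 1 lower, beside 6.18% and 5.43% of all genes. Gata4, a defining regulator of that lineage, had 30.3 and 36.6 CPM against 12.8 and 21.9 CPM (0.94 ± 0.25, edgeR adjusted p = 0.18), and the receptor gene Pdgfra had 32.03 and 50.9 CPM against 18.2 and 20.4 CPM (1.10 ± 0.23, 0.093). Gata6 (0.79 ± 0.23) and Sox17 (0.85 ± 0.27) had adjusted p values of 0.21 and 0.24. Ttr had 0 reads in all 4 libraries, and Afp had 8 and 1 after knockdown and 0 in both controls. The 1 marker below was Hnf4a, a nuclear receptor gene of endoderm, which had 4.30 and 2.51 CPM after knockdown against 9.49 and 5.03 CPM (-1.09 ± 0.40, edgeR adjusted p = 0.32). EdgeR called 0 of the 8. DESeq2 called 2, Gata4 and Pdgfra, both higher, as were 0.729% of the genes it adjusted. Whether these cells take part in the lower Nanog and Tfcp2l1 levels was not tested. Trophectoderm markers summed to 53.8 and 63.9 CPM against 54.3 and 56.5 CPM, and mesoderm markers to 31.3 and 21.9 against 38.02 and 17.5 CPM, with overlap in both. The median log2 FC was -0.23 over 7 tested trophectoderm markers, 4 of them below 0. Over 4 tested mesoderm markers it was -0.30, with 3 below 0. The median of the 10 factors was -0.29. Neuroectoderm markers also overlapped in sum, at 198 and 204 against 179.8 and 215 CPM, while their genes went both ways. Of 5 tested, 3 were separated upward and 1 downward between the groups, beside 22.3% and 21.3% of all genes. Their median log2 FC was 0.44, and edgeR called 0. At an unadjusted p under 0.05 they held 2 higher and 1 lower, beside 6.18% and 5.43% of all genes. Tubb3, the largest part of the sum, had 90.4 and 129 CPM after knockdown against 122 and 162 CPM (-0.37 ± 0.19, edgeR adjusted p = 0.49). Sox11, a SOX factor gene of neural progenitors, had 30.2 and 21.9 CPM after knockdown against 12.7 and 9.16 CPM (1.25 ± 0.25, adjusted p = 0.085 by edgeR and 0.0025 by DESeq2). Nes, the intermediate filament gene nestin, stood at 0.74 ± 0.24, Pax6 at -1.10 ± 0.48 and Sox1 at 0.44 ± 0.22, with edgeR adjusted p values of 0.25, 0.39 and 0.47. Whether such cells take part in the factors' levels was not tested. Feeder markers summed to 49.3 and 22.1 against 40.9 and 24.1 CPM, and 2-cell-like markers to 8.11 and 7.01 against 6.27 and 6.30 CPM.

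**Figure D5:**
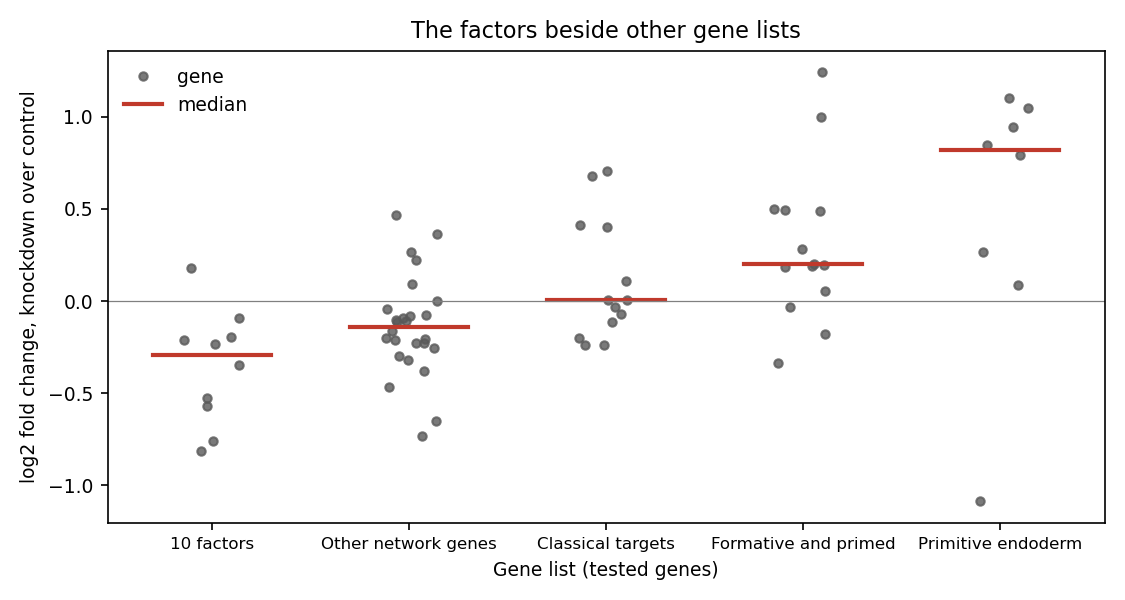
Log2 FC, Cyrano knockdown over control, of the tested genes in 5 lists; points are genes, placed sideways at random, and bars are list medians. Medians stand at -0.29 for the 10 factors, -0.14 for other network genes, 0.003 for classical targets, 0.20 for formative and primed genes and 0.82 for primitive endoderm markers.

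Among 8369 genes with a mean of at least 10 CPM, the 5 whose pattern over the 4 libraries lay nearest to that of Nanog were Arhgef10l, Mvk, Mmrn2, Epb4.1l4a and Aldh6a1. The measure was the Euclidean distance between centred log2 CPM, which ran from 0.10 to 0.13 for these 5. Their log2 FC values ran from -0.67 for Mmrn2 to -0.81 for Mvk, and none was called by edgeR (adjusted p from 0.11 to 0.24). The nearest of the other factors were Nr5a2 at a distance of 0.32 and Prdm14 at 0.33, and the farthest was Sox2 at 0.95. With 4 libraries such a likeness mostly restates the size of the difference and the order of the replicates.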

How the data were processed

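The authors deposited raw read counts per gene symbol, 1 file per library, with no normalization; per the submitters' processing notes TopHat, HTSeq, SAMtools and bedtools were used with build mm9. Neither the notes nor the labels state annotation, versions or strand setting, so reads of the antisense genes Gm19553 (at Pou5f1) and Tbx3os1 (at Tbx3) cannot be set apart. The 5 tallies that name no gene, 33.1% to 40.8% of all reads, were left out, most of them reads without a unique alignment. Reads of Nanog and Zfp42 shared with the pseudogenes Nanog-ps1 and Zfp42-ps1 could be lost there. The Nanog transcript also matched those of other listed genes over at least 200 bases at 90% identity or more. Its reads from such stretches could be lost as well.

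The test was edgeR 4.0.16 (R 4.3.3) with filterByExpr (minimum count 10), TMM factors, glmQLFit with robust estimation and glmQLFTest, group as the only term, two-sided, with Benjamini-Hochberg adjustment over 13199 genes and a threshold of 0.05. The SE of a log2 fold change is its size divided by the square root of F. Alternatives were other factors and filters, DESeq2 1.42.0, limma-voom (limma 3.58.1), leaving out each library, a replicate block, and a correction for the length and GC content of transcripts by an offset. Lengths, UTRs and overlaps came from GENCODE M21 (GRCm38) by symbol, with 98.5% of symbols matched, and no coordinate was moved between builds. The factors and lists were chosen with earlier results of these data known. Named were all 10 factors, Cyrano, the 5 genes nearest to Nanog, and Sox2ot. From each network, epiblast, primitive endoderm and neuroectoderm list up to 4 genes were named by lowest p. The feeder markers, Ttr, Afp, Hnf4a, Tubb3 and Rn45s were named after their values were seen.

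Replicates differed beyond sampling noise (chi-square over degrees of freedom 20.54 for knockdown, 25.36 for control). Counting error is small at these depths and is covered by the fitted spread.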

Additional observations from a re-analysis of the deposited data

How the results depend on the processing

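In all 16 alternatives each of the 10 log2 fold changes kept its sign, and Pou5f1, Sox2, Esrrb, Nr0b1, Tbx3 and Zfp42 were called in none. Nanog, not called at -0.76 (edgeR adjusted p = 0.0696), was called with upper-quartile factors (-0.78), with library size only (-0.71), with no filter (-0.76), with the length and GC offset (-0.86) and by DESeq2 (-0.76). Tfcp2l1, at -0.81, was called with no filter (-0.81) and by DESeq2 (-0.82), and ranged from -1.07 to -0.50 when 1 library was left out. The number of factors called lower, 0, was 1 with upper-quartile factors, library size only or the length and GC offset, 2 with no filter or DESeq2, and 0 to 1 when 1 library was left out; the number called higher stayed at 0. The labels do not say that replicate numbers mark shared cultures, although number 1 libraries deviated together (r = 0.29 across genes, which are not independent). With the replicate block 4 factors were called lower: Nanog (-0.76), Tfcp2l1 (-0.80), Nr5a2 (-0.52) and Prdm14 (-0.57). The block with the length and GC offset gave 4 as well, with Nanog at -0.86, Tfcp2l1 at -0.64, Nr5a2 at -0.55 and Prdm14 at -0.56. Over all genes 5 were called higher and 6 lower. These numbers became 0 and 0 without control library 2, 0 and 1 without control library 1, 1 and 2 under limma-voom, 1 and 3 if estimation was not robust, 2 and 4 under RLE factors or the CPM filter, 10 and 16 under upper-quartile factors, 32 and 18 under library size only, 32 and 17 without knockdown library 2, 60 and 131 without knockdown library 1, 72 and 64 under DESeq2, 174 and 158 if no filter was set, 336 and 254 under block and offset, and 504 and 451 under the block. Of the calls at unadjusted p, 53.2% were higher, against 66.9% under library size only, 46.5% under upper-quartile factors and 41.1% to 61.9% when 1 library was left out. With 1 library left out, Pou5f1 ranged from -0.17 to -0.0095 (both bounds set by a control), Sox2 from 0.089 to 0.26 and Zfp42 from -0.31 to -0.12 (bounds set by a knockdown library). The 9 factors whose groups did not overlap were 6 with library size only. The cause of these differences was not tested. Prdm14, the factor with the fewest reads, had 527 and 632 reads after knockdown and 570 and 827 in the controls. The spread between libraries was estimated from 2 libraries a group.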
